A study of Glycine max with 16 samples.

Results

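Leaf transcript levels of 7 soybean (Glycine max) circadian clock genes that act in the day and evening were followed across 4 lines with and without drying. The genes were chosen by name and not by their values, though with earlier results of these data known. They are soybean copies of GIGANTEA (Glyma.10G221500, the maturity gene E2, and Glyma.20G170000), ELF3 (Glyma.04G050200, the gene J), LUX (Glyma.12G060200 and Glyma.11G136600) and PRR3 (Glyma.12G073900, known as Tof12, and Glyma.U034500, known as Tof11). The list may leave out other copies. Its members are 7 of the 56044 genes in the authors' table. Of the 7, 6 passed the filter on low values and were tested, and Tof11 was listed at 0 throughout.

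The lines were A004A, A005B and B010C, which are transgenic for over-expression of the transcription factor gene GmWRKY54, and the null line, which served as the control and carries the line name B001A. Seedlings were 2 weeks old and soil-grown in a greenhouse, and trifoliate leaves were taken either from plants kept well watered or after the seedlings had been left to dry in air for 6 h. The labels list 16 samples in 8 groups of 2, and the table holds 8 columns, 1 authors' value for each line and treatment, in RPKM (reads scaled to gene length and to the mapped reads of a library). The sources used here do not give the promoter that drives the transgene, the number of insertions in each line, or whether samples of 1 group were separate plants. Neither the hour of collection nor a watered group held for the same 6 h is given, so drying, the passage of 6 h and the time of day cannot be told apart in any comparison of dehydrated with watered leaves.

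The circadian clock of plants is a set of transcription factors and partner proteins that switch each other on and off over the day. GIGANTEA is a large nuclear protein whose transcript in Arabidopsis peaks late in the day and which stabilises light-sensing F-box proteins; in soybean the E2 copy delays flowering. ELF3 and the MYB-type DNA-binding protein LUX are parts of the evening complex, a night-time repressor, and in soybean J and LUX act on flowering by lowering the legume repressor E1. PRR3 proteins are pseudo-response regulators, which hold back the morning genes of the clock, and variants of Tof11 and Tof12 changed flowering time during soybean domestication. Transcripts of these families cycle over the day in Arabidopsis.

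The sum of RPKM over genes lay between 636011 and 818267 per column, and read depth is unknown. Glyma.10G011300, which may be GmWRKY54 but which no source used here pairs with that name, had 11.5 RPKM in null leaves with water and 11.7 RPKM after drying. It was higher in A004A (51.1 and 119 RPKM) and in A005B (73.0 and 238 RPKM). B010C lay somewhat below null with water (9.05 RPKM) and above it after drying (18.0 RPKM). The labelled tissue was not checked against leaf marker genes, because no identifier in the table could be matched to a gene name. A reference gene table placed the genes of these names on the chromosome given in the identifier for 6 of the 7 members, the exception being Tof11, whose identifier names no chromosome. Reference names were paired with identifiers by hand, so a shared chromosome does not show that an identifier is that gene.

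Of the 6 tested clock genes, E2 and both LUX genes rose on drying and J fell, while the second GIGANTEA copy and Tof12 did not pass the test, with lines on either side of 0. Changes were tested with limma on log2(RPKM + 1) over 34400 genes, with the 4 lines as the replicates of the treatment and Benjamini-Hochberg adjustment over all genes. The 4 calls among 6 genes (66.7%) stand beside a background of 68.7% of all genes tested that were called, 28.7% higher and 40.0% lower, so the share of clock genes that changed was not above that of the leaf transcriptome. The split of the background depended on scaling: median-of-ratios scaling gave 35.0% of genes higher and 34.2% lower, and quantile normalization gave 32.4% higher and 36.96% lower. All 4 dehydrated columns lay above all watered ones for 3 members (27.5% of genes tested) and below them for 1 member (37.5% of genes tested). The median log2 change of the 6 genes was 0.34, against -0.18 for all genes tested. Fewer cells of a type and less RNA per cell cannot be told apart in such leaf samples.

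**Figure D1:**
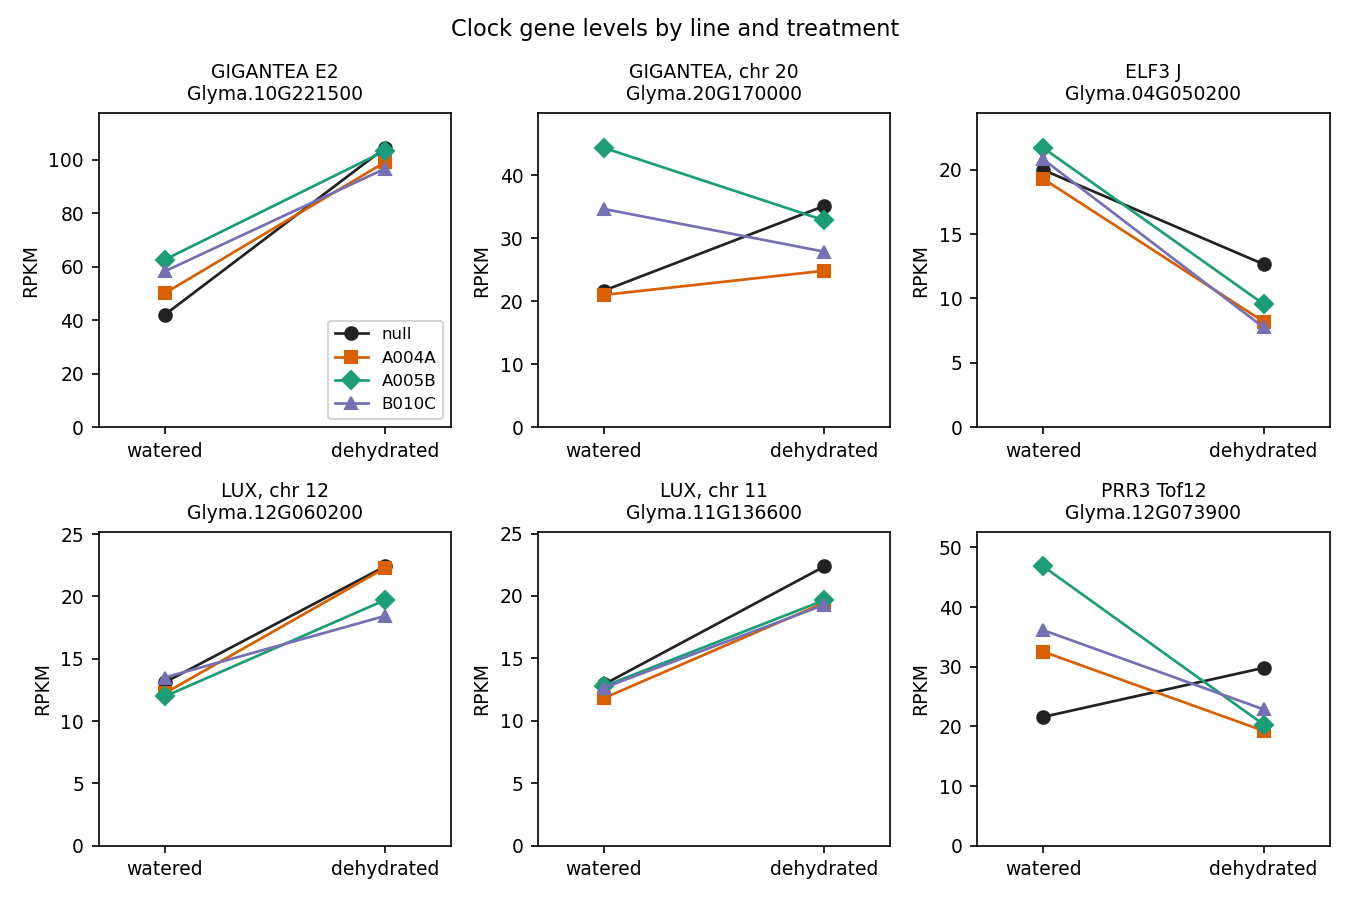
Levels of the 6 detected clock genes in RPKM (vertical axis, from 0) in watered and dehydrated leaves (horizontal axis), with 1 point for each line and treatment and a line joining the points of a plant line. E2 and both LUX genes are higher and J is lower in all 4 dehydrated columns, whereas the second GIGANTEA copy and Tof12 run in both directions.

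E2, the GIGANTEA copy of the maturity locus, was the most abundant member in every column. In watered leaves it stood at 42.0 RPKM in null, 50.1 RPKM in A004A, 62.7 RPKM in A005B and 58.3 RPKM in B010C. In dehydrated leaves the values were 104 RPKM in null, 99.1 RPKM in A004A, 103 RPKM in A005B and 96.7 RPKM in B010C. All dehydrated columns lay above all watered ones. With values as deposited, lines that differed when watered came together when dried. The highest line was 1.49 times the lowest in watered leaves and 1.08 times in dehydrated leaves, where 1.60% of genes tested had a narrower spread. That spread was not measured on rescaled values. As deposited, the transgenic mean differed from null by 0.42 in watered and -0.066 in dehydrated leaves (log2, limma). Median-of-ratios scaling gave 0.45 and 0.12, and quantile normalization 0.55 and 0.11. The side of null on which dried lines lay thus depended on scaling, while the difference stayed smaller than in watered leaves. The mean log2 change was 0.92 ± 0.17 SE (limma, adjusted p = 0.00173; 4 lines). The rise was 2.48-fold in null, 1.98-fold in A004A, 1.65-fold in A005B and 1.66-fold in B010C. The line lowest with water rose most, but with dried levels so close the fold mostly restates the watered level.

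The second GIGANTEA copy, Glyma.20G170000, had no direction common to the lines. Watered leaves held 21.7 RPKM in null, 21.0 RPKM in A004A, 44.4 RPKM in A005B and 34.7 RPKM in B010C. Dehydrated leaves held 35.1 RPKM in null, 24.8 RPKM in A004A, 32.8 RPKM in A005B and 27.9 RPKM in B010C. The treatments overlapped: null and A004A were higher after drying (1.62-fold and 1.18-fold), and A005B and B010C were lower (0.740 and 0.804 times the watered value). The mean log2 change was 0.044 ± 0.21 SE (limma, adjusted p = 0.859), with a 95% interval from -0.43 to 0.52. Its sign turned without null (-0.17), without A004A (-0.018) and after quantile normalization (-0.053).

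The ratio of E2 to the second copy within a column is not altered by scaling a column with a single factor, though quantile normalization can alter it. With values as deposited it went from 1.94 to 2.97 in null, from 2.38 to 3.99 in A004A, from 1.41 to 3.15 in A005B and from 1.68 to 3.47 in B010C. Every dehydrated ratio was above every watered ratio. The log2 ratio was higher by 0.89 in dehydrated columns, with p = 0.0286 in a two-sided exact permutation test over the 8 columns, which is the smallest p that 4 against 4 can give. After adjustment over the 2 paralogue pairs tested it was 0.0571 (exact permutation test), so it did not pass 0.05. With p at its smallest, it could have passed only if the LUX pair had also passed, so this miss decides nothing. The sources used here do not say how reads shared by such copies were assigned, and levels of near-identical genes are uncertain to that extent.

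J, the soybean ELF3 gene of the evening complex, was the only tested member that fell in all lines. Watered leaves held 19.99 RPKM in null, 19.3 RPKM in A004A, 21.7 RPKM in A005B and 20.8 RPKM in B010C, a tight group in which the highest line was 1.12 times the lowest. Dehydrated leaves held 12.7 RPKM in null, 8.20 RPKM in A004A, 9.57 RPKM in A005B and 7.75 RPKM in B010C, all below the watered values. The log2 change was -1.05 ± 0.15 SE (limma, adjusted p = 0.000609; 4 lines). The dehydrated level was 0.634 times the watered one in null, 0.425 times in A004A, 0.441 times in A005B and 0.372 times in B010C, so null kept the most.

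The LUX genes, which encode the DNA-binding partner of ELF3, moved the other way. Glyma.12G060200 went from 13.1 to 22.4 RPKM in null, from 12.2 to 22.3 RPKM in A004A, from 11.98 to 19.7 RPKM in A005B and from 13.5 to 18.4 RPKM in B010C. Glyma.11G136600 went from 12.9 to 22.4 RPKM in null, from 11.8 to 19.5 RPKM in A004A, from 12.8 to 19.7 RPKM in A005B and from 12.7 to 19.3 RPKM in B010C. For each gene all dehydrated columns lay above all watered columns. The log2 changes were 0.66 ± 0.13 SE for Glyma.12G060200 (limma, adjusted p = 0.00305) and 0.64 ± 0.13 SE for Glyma.11G136600 (limma, adjusted p = 0.00249). The rise was 1.37-fold to 1.82-fold over lines for the first and 1.53-fold to 1.73-fold for the second.

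Watered lines differed little in the LUX copies, as they did in J. For Glyma.11G136600 the highest watered line was 1.09 times the lowest, with a narrower spread in 5.29% of genes tested, and for Glyma.12G060200 it was 1.13 times, with a narrower spread in 10.3%. The ratio of the chromosome 12 copy to the chromosome 11 copy lay between 0.938 and 1.07 in watered and between 0.956 and 1.15 in dehydrated columns. The mean log2 ratio differed between treatments by 0.017 (two-sided exact permutation test over 8 columns, p = 0.857). Leaving out A004A or A005B turned the sign of that difference (-0.027 and -0.0097). How reads shared by the LUX copies were assigned is not given either, so their levels may not be independent.

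The transcript of J therefore changed places in abundance with that of each LUX copy taken singly. The LUX copies were not summed, and protein was not measured. In watered leaves J was above both LUX genes in all 4 lines, at 1.53 to 1.81 times Glyma.12G060200 and 1.55 to 1.70 times Glyma.11G136600. In dehydrated leaves J was below both in all 4 lines, at 0.368 to 0.565 times Glyma.12G060200 and 0.402 to 0.566 times Glyma.11G136600. The reversal was deepest in A004A for the first ratio and in B010C for the second, and shallowest in null for both.

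**Figure D2:**
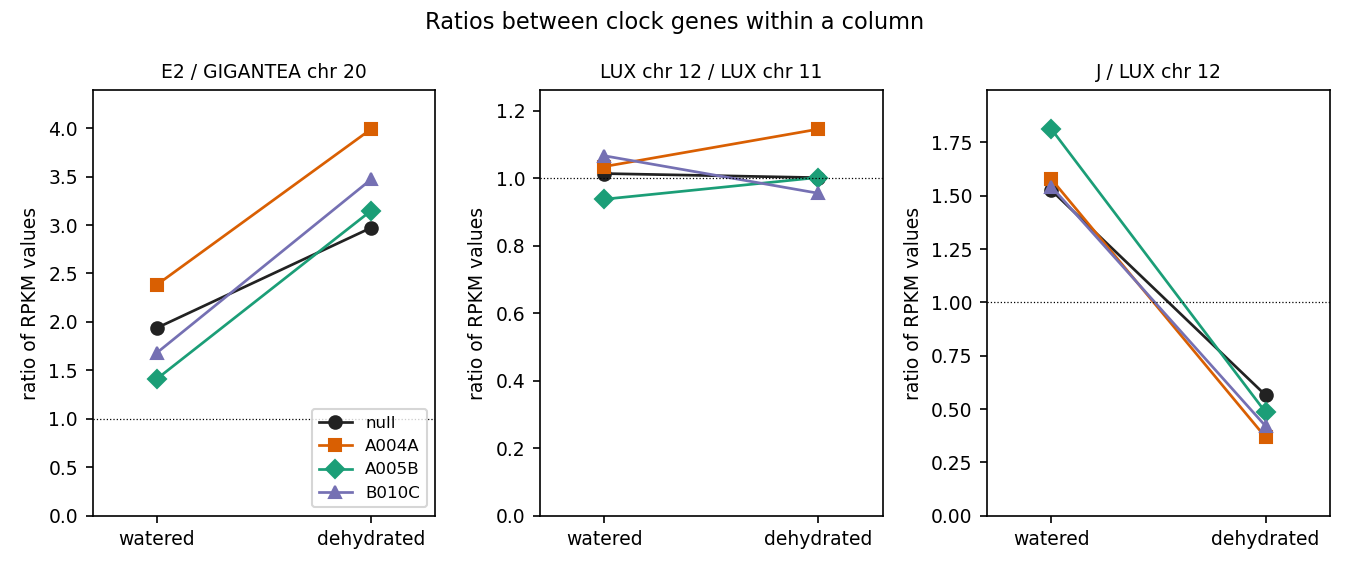
Ratios of RPKM values within a column (vertical axes, from 0) in watered and dehydrated leaves of the 4 lines, for E2 over the second GIGANTEA copy, the LUX gene of chromosome 12 over that of chromosome 11, and J over the LUX gene of chromosome 12. The dotted line marks a ratio of 1. The GIGANTEA ratio is higher in every dehydrated column and the LUX ratio stays between 0.938 and 1.15. J passes from above the LUX gene of chromosome 12 to below it in every line.

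Tof12, a PRR3 gene, was the member that differed most between lines in watered leaves, with the highest line at 2.17 times the lowest, followed by the second GIGANTEA copy at 2.11 times. Watered leaves held 21.6 RPKM in null, 32.5 RPKM in A004A, 46.8 RPKM in A005B and 36.1 RPKM in B010C, so every transgenic line was above null. Dehydrated leaves held 29.8 RPKM in null, 19.3 RPKM in A004A, 20.3 RPKM in A005B and 22.8 RPKM in B010C, with every transgenic line below null. Tof12 was higher after drying in null, at 1.38 times the watered value, and lower in the transgenic lines, at 0.592 times in A004A, 0.434 times in A005B and 0.632 times in B010C. These signs were the same after median-of-ratios scaling and quantile normalization. Over the 4 lines the log2 change was -0.52 ± 0.25 SE and did not pass (limma, adjusted p = 0.1001). Without the null line it was -0.84 ± 0.17 SE and passed (limma, adjusted p = 0.00694; 3 lines), so the call rests on whether null is included. Without A005B it was -0.31 ± 0.26 SE (limma, adjusted p = 0.337; 3 lines).

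Tof11, the other PRR3 gene, was listed at 0 in all 8 columns. It is not alone in this: all 455 genes whose identifier starts with Glyma.U, as that of Tof11 does, were listed at 0 in every column, against 11.9% of the other genes. The zero of Tof11 therefore cannot be read as a level of its transcript, and no ratio of Tof12 to Tof11 was formed.

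**Figure D3:**
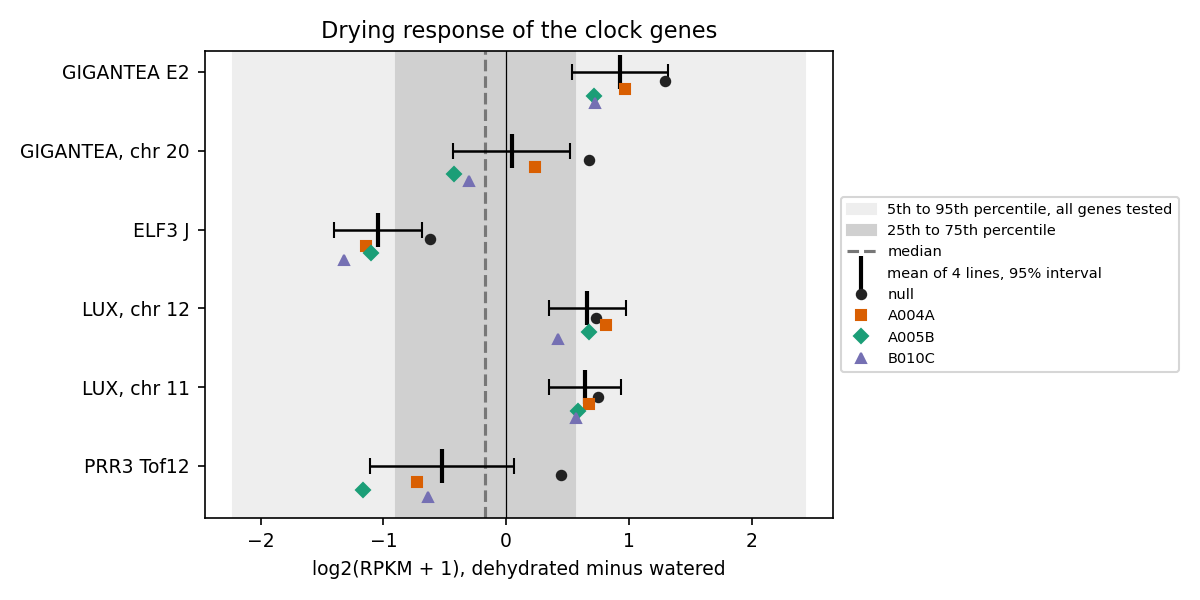
Change on drying on the log2(RPKM + 1) scale (horizontal axis, dehydrated minus watered) for the 6 tested clock genes, with the mean of 4 lines and its 95% interval from limma (black) and each line as a point. The grey bands show where the middle of all 34400 tested genes lies, with a median of -0.18: E2, J and both LUX genes have intervals that exclude 0, and the null point of Tof12 lies on the other side of 0 from the transgenic lines.

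Against the whole leaf transcriptome these were moderate changes. Changes of at least 2-fold on the log2(RPKM + 1) scale were the higher level of E2 in null, a size reached by 15.8% of all genes, and the lower level of J in A004A, A005B and B010C, reached by 28.3%, 23.7% and 23.4% of genes. Tof12 was at least 2-fold lower in A005B as well, which made 2 members in that line. In absolute size, the log2 change of J exceeded that of 63.7% of genes tested, E2 exceeded 58.4%, Glyma.12G060200 45.0% and Glyma.11G136600 44.0%. In direction, the rise of E2 stood at percentile 82.6 of all signed changes and those of the LUX genes at percentiles 77.3 and 76.9, while J stood at percentile 20.9. By mean level the tested members were well expressed, from percentile 75.9 for J to percentile 96.3 for E2.

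Lines were next compared with null within each treatment, which asks how plants labelled as over-expressing GmWRKY54 differ from the control. B010C is pooled with the other lines by its label, although Glyma.10G011300, the possible GmWRKY54, stood there at 9.05 RPKM in watered leaves against 11.5 RPKM in null. In dehydrated leaves it stood at 18.0 RPKM in B010C against 11.7 RPKM in null. Without B010C the limma differences from null were 0.83 ± 0.30 SE for Tof12 in watered leaves and -0.57 ± 0.30 SE in dehydrated leaves, and no member passed in either treatment. There is 1 null column per treatment, it enters all 3 line comparisons, and limma has to assume that null varies as the transgenic lines do. In watered leaves the members farthest from null were Tof12 and the GIGANTEA copies. Tof12 was 1.51 times null in A004A, 2.17 times in A005B and 1.67 times in B010C, and E2 was 1.19, 1.49 and 1.39 times null in the same lines. The second GIGANTEA copy was 2.04 times null in A005B and 1.60 times in B010C but 0.969 times in A004A. J and the LUX genes lay between 0.914 and 1.09 times null. A difference of at least 2-fold on the log2(RPKM + 1) scale was reached by Tof12 in A005B alone, where 1.03% of genes were that far above null.

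The watered order of the lines was A005B, then B010C, then A004A, then null for E2 and for Tof12, an order seen in 7.47% of all genes tested. For the second GIGANTEA copy A005B and B010C came first as well, and A004A stood at 0.969 times null. All 3 transgenic lines were above null for 2 of the 6 members, E2 and Tof12, where 26.6% of all genes showed this. After quantile normalization it was 4 of 6, with the second GIGANTEA copy and J added (28.6% of all genes), and after median-of-ratios scaling it was again E2 and Tof12. By limma the mean of the 3 lines exceeded null by 0.79 ± 0.24 SE for Tof12, by 0.42 ± 0.23 SE for E2 and by 0.54 ± 0.38 SE for the second GIGANTEA copy on the log2 scale, and none passed (adjusted p = 1 for each). For Tof12 the unadjusted p from limma was 0.013. In this comparison limma called 0 of 34400 genes (0%), with 3.21% of genes at an unadjusted p under 0.05, so a p that misses the threshold says little about a single gene.

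**Figure D4:**
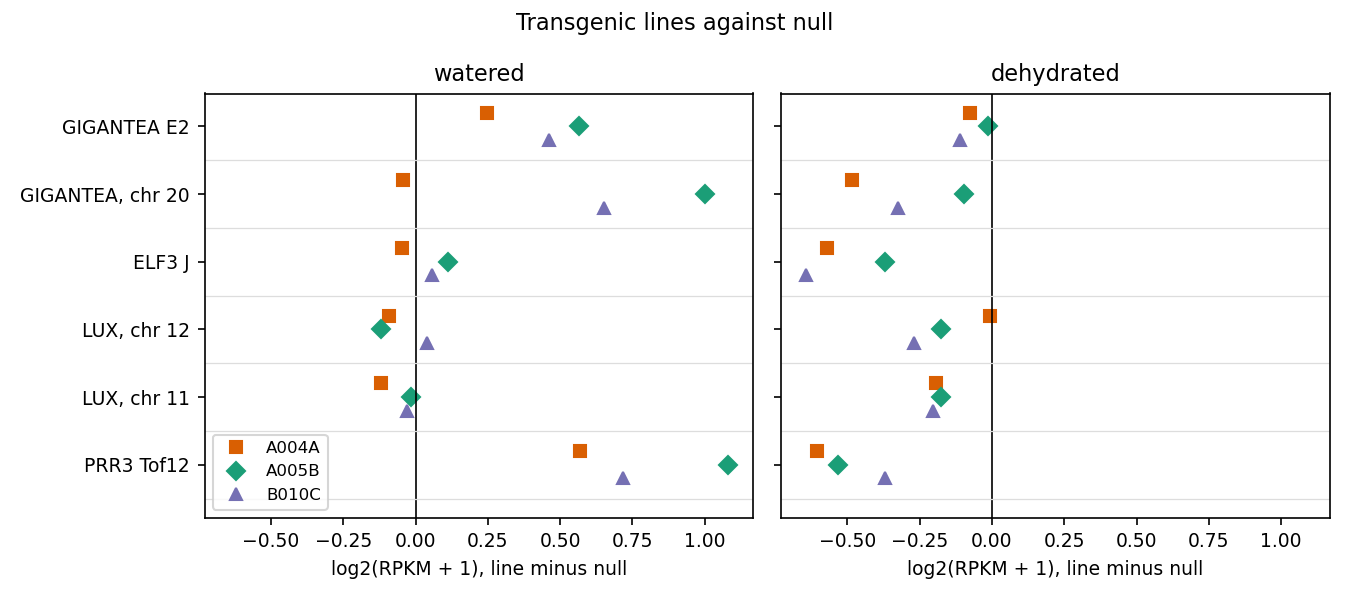
Difference of each transgenic line from null on the log2(RPKM + 1) scale (horizontal axes) in watered leaves (left) and dehydrated leaves (right) for the 6 detected clock genes, with 1 point for each line. In watered leaves Tof12 and E2 lie to the right of 0 in all 3 lines, and in dehydrated leaves all points lie to the left of 0 with values as deposited, some by very little.

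In dehydrated leaves all 3 transgenic lines were below null for 6 of 6 members, where 45.4% of all genes showed this. That count depended on how the columns were scaled: after median-of-ratios scaling it was 3 of 6, the second GIGANTEA copy, J and Tof12 (30.5% of all genes), and after quantile normalization it was 2 of 6, J and Tof12 (31.8% of all genes). As deposited, the median log2 difference of all genes from null was -0.16 in dehydrated leaves and -0.012 in watered leaves. J stood at 0.647 times null in A004A, 0.755 times in A005B and 0.612 times in B010C. Tof12 stood at 0.646, 0.681 and 0.766 times null in the same order of lines. With values as deposited E2 lay at 0.926 to 0.99 times null. The mean log2 differences of J and Tof12 from null were smaller on rescaled values than as deposited. Median-of-ratios scaling gave -0.36 for J and -0.32 for Tof12, and quantile normalization gave -0.33 for each. By limma J was lower than null by a log2 difference of -0.53 ± 0.18 SE (adjusted p = 0.294) and Tof12 by -0.50 ± 0.24 SE (adjusted p = 0.379), and no member passed, against 2 genes called in all (0.00581%) and 14.7% of genes at an unadjusted p under 0.05.

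The response to drying was compared between the transgenic lines and null as a difference of differences. This came from the group-mean fit, which does not pair the columns of a line. Differences in level between lines therefore enter its SE, intervals and p-values. For Tof12 it was -1.29 ± 0.34 SE on the log2 scale, with a 95% interval from -2.10 to -0.49, an unadjusted p of 0.00635 and an adjusted p of 0.494 by limma. That difference was lower than in all but 1.36% of genes tested, and 4.57% of genes shared its pattern of a higher dehydrated level in null and a lower one in the 3 transgenic lines. The second GIGANTEA copy followed with -0.84 ± 0.54 SE, then J with -0.57 ± 0.26 SE and E2 with -0.49 ± 0.32 SE. For the LUX genes the difference was near 0 (-0.093 ± 0.26 SE and -0.14 ± 0.23 SE), and its sign turned under both other scalings. No member passed (limma, adjusted p from 0.494 to 0.93), and limma called 1 gene in this comparison (0.00291%), with 9.56% of genes at an unadjusted p under 0.05.

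Genes with the most similar pattern were sought for each member by the root mean square difference of log2(RPKM + 1) over the 8 columns, after subtracting each gene's own mean, among 34399 other genes. Genes that respond alike to drying score as alike by this measure, and it carries no test. For Glyma.12G060200 its LUX partner ranked 9 (difference 0.0801), and in the other direction the partner ranked 52. The part that shared reads may have in this likeness was not tested. E2 and the second GIGANTEA copy were less alike than the LUX pair, with a difference of 0.491. That is rank 10127 seen from E2 (29.4% of the genes ranked) and rank 13168 seen from the second copy (38.3%). From E2 the nearest member was Glyma.11G136600 (rank 955, difference 0.214). From the second GIGANTEA copy the nearest member was Tof12 (rank 3922, difference 0.353), and from Tof12 it was the second GIGANTEA copy (rank 5257).

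The nearest genes of all were known by identifier only. They were Glyma.09G061200 and Glyma.08G293900 for E2 (0.0653 and 0.0669), and Glyma.14G191600 and Glyma.14G138300 for the second GIGANTEA copy (0.0817 and 0.147). For J they were Glyma.08G167200 and Glyma.09G279500, with the smallest difference of any member's nearest gene (0.0246 and 0.0405). Glyma.08G167200 held only 2.54 to 3.13 RPKM over the watered lines and 0.548 to 1.48 RPKM over the dehydrated ones. The 1 added to RPKM understates changes at such levels, so its closeness to J depends in part on that setting. Other low nearest genes were Glyma.14G191600 (means of 1.63 RPKM watered and 1.79 RPKM dehydrated) and Glyma.16G000800 (1.23 and 0.674 RPKM). Glyma.09G279500 ran from 8.75 to 10.2 RPKM over the watered lines and from 3.34 to 5.29 RPKM over the dehydrated ones. For the LUX genes they were Glyma.06G062300 and Glyma.13G271000 (chromosome 12 copy, 0.0594 and 0.062) and Glyma.01G159400 and Glyma.08G318100 (chromosome 11 copy, 0.045 and 0.046). For Tof12 they were Glyma.16G000800 and Glyma.12G201100 (0.0852 and 0.113), of which Glyma.12G201100 spanned 2.12 to 5.14 RPKM in watered and 1.79 to 3.28 RPKM in dehydrated leaves.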

How the data were processed

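The authors deposited RPKM values, 1 column for the 2 samples of each line and treatment. Reads were aligned with TopHat, per the submitters' processing notes. The counting program, genome build, annotation and way of combining samples were not given in the sources used here. Columns were matched to groups by name, and 0 were left over. Depth is unknown: among genes under 0.3 RPKM in every column, the commonest ratio of a pair of columns (log2 window 0.006, 28 pairs) was shared by 0.459% to 3.94% of genes, so whole reads could not be recovered.

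The 34400 of 56044 genes that reached 1 RPKM in 2 columns or more were analysed as log2(RPKM + 1), which understates the change of low genes. Dehydration was tested in limma 3.58.1 (R 4.3.3) with terms for line and treatment (3 residual degrees of freedom). Transgenic lines were tested against null in a group-mean fit (4 residual degrees of freedom). Both used empirical Bayes with a trend, two-sided tests, Benjamini-Hochberg adjustment over all genes and a threshold of 0.05. Both were also run on simulated data, with outcomes not given here. The simulation for the comparison with null left out differences between lines, so it did not mimic that source of spread. In the dehydration test, p-values rest on how the change varied from line to line. In the group-mean fit they rest on the spread among the 3 transgenic lines, because null has 1 column per treatment. Ratios between copies were tested by exact permutation (SciPy 1.17.1, Python 3.11.15). Figures were drawn with matplotlib 3.10.9.

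The members and tests were chosen with earlier results of these data known. All 7 members are named, with the 2 most similar genes for each. Names come from the list of members; 0 identifiers matched the reference gene table (Glycine_max_v4.0), so a wider clock gene list, a check of leaf markers and sequences were not used here. Alternatives were the pseudocount, filter, scaling, trend, line term and leaving out each line.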

Additional observations from a re-analysis of the deposited data

Results flagged for a closer look

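Tof12 (Glyma.12G073900) stood out because null was higher after drying while all 3 transgenic lines were lower. The difference of responses was -1.29 on the log2 scale and did not pass limma after adjustment over all genes (adjusted p = 0.494, from 0.326 to 0.806 over its alternatives); it rests on 1 null column per treatment.

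Among dehydrated leaves, null stood apart from the other lines for the LUX gene Glyma.11G136600, at 22.4 RPKM against 19.3 to 19.7 RPKM, a gap of 0.879 of the whole range. This holds for values as deposited: the mean difference of the transgenic lines from null was -0.19 on the log2 scale there, but quantile normalization gave -0.02 and median-of-ratios scaling -0.013. In 12 groups of 4 columns screened in this way, chance flags about 1 in 20.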

How the results depend on the processing

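No paired analysis was possible because the columns carry no replicate number, as far as pairing by that number goes; the drying fit pairs the columns of a line through its line term. The rises of E2 and both LUX genes and the fall of J kept their direction and passed in all 11 alternatives, with log2 changes of 0.78 to 1.16 for E2, 0.61 to 0.88 for Glyma.12G060200, 0.61 to 0.87 for Glyma.11G136600 and -1.19 to -0.82 for J. Leaving out each line in turn moved Tof12 from -0.84 (without null, adjusted p = 0.00694 in limma) to -0.31, and the second GIGANTEA copy from -0.17 to 0.20; quantile normalization gave the latter -0.053. Transgenic minus null in dehydrated leaves turned sign for E2 (0.12 with median-of-ratios scaling, 0.11 with quantile normalization) and Glyma.12G060200 (0.027 and 0.021). The difference of responses turned sign for Glyma.12G060200 (0.061 and 0.048) and Glyma.11G136600 (0.017 and 0.0064), and over lines left out ranged from -0.18 to 0.014 for the former. The LUX ratio ranged from -0.027 to 0.075 over lines left out and the GIGANTEA ratio from 0.80 to 0.98; permuting within lines gave the GIGANTEA ratio an adjusted p of 0.25 (exact permutation test), but with 4 lines that test cannot go below 0.125 before adjustment and so cannot pass. The cause of these shifts was not tested. With a mean of at least 5 RPKM, 7275 genes were called lower on drying in place of 13764, of 19589 tested. Without a filter, limma called 7 genes higher and 173 lower than null in watered leaves, 41 and 210 in dehydrated leaves, and 169 and 184 for the response. Without B010C it called 57 and 32 in dehydrated leaves. The other scalings moved the median change of all genes from -0.18 to 0.015 and -0.066. Fitting 1 difference per line, an alternative chosen after seeing the data, left Tof12 at an adjusted p of 0.602 (limma). Depth is unknown, so no counting error could be given.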
